A study of Gallus gallus with 9 samples.

Results

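The chromatin regulators of the chick olfactory placode were taken as all genes on the array whose symbol begins HDAC, KDM, SMARC, SETD or DNMT, or KAT, CBX or CHD followed by a number (CHD7 left out), with EZH1, EZH2, EED, SUZ12, TET1, TET2 and TET3. The rule used names only and no measured value, but it was chosen with earlier results of these data known. It found 71 genes with 172 probe sets, out of 13008 genes with a named probe set on the array. A probe set is a group of short DNA probes designed against a transcript, or in some cases against several. The brightest probe set of each gene, by its mean over 9 arrays, stands for the gene below.

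Olfactory placodes are thickenings of the head ectoderm that give rise to the olfactory epithelium and to the neurons that make gonadotropin-releasing hormone. Placodes were dissected from chick embryos at 3 stages of the Hamburger and Hamilton (HH) series, 16, 18 and 20, with 3 biological replicates at each stage and 1 Affymetrix array per replicate. The series title places these stages in the initial period of GnRH neuron production. No treatment, genotype or strain is named in the labels, so the groups differ by stage alone as far as the labels say, and the number of embryos behind each RNA sample is not given there.

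Histones carry acetyl and methyl groups that change how tightly DNA is packed and which proteins bind it. Acetyltransferases and methyltransferases add these groups, deacetylases and demethylases remove them, and remodelling complexes such as BAF use ATP to slide or evict nucleosomes. In the developing nervous system of mammals, the subunits of BAF and the Polycomb repressive complex PRC2 are known to be exchanged or rewired as dividing progenitors become neurons.

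Before normalization, the arrays differed in brightness. The median signal of all probe sets, virus and control ones included, was 14.5 on HH16 replicate 1. It was 11.6 on HH18 replicate 2 and HH20 replicate 1, and 6.9 to 9.1 on the others. The values below are log2(intensity + 16) after quantile normalization, so a fold change is on that scale and understates the change of dim genes. Background was taken as the 99th percentile of the virus probe sets on the same array, and between 46.9% and 59.6% of the chicken probe sets exceeded it. Of 17 placode markers, 14 had a named probe set, and 13 of these were above background on all 9 arrays. After normalization, arrays of the same stage correlated at r = 0.984 to 0.993 across probe sets, and arrays of different stages at 0.979 to 0.989.

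Most chromatin regulators were measurable at every stage. Of the 71 genes, 68 passed the filter on dim probe sets, which kept 24489 of 37693 chicken probe sets, and 59 of the 68 were above background on all 9 arrays. The 3 genes that did not pass were CBX2 and CBX7, which in mammals encode chromobox subunits of the Polycomb complex PRC1, and KDM1B, a demethylase of histone H3. CBX7 and KDM1B exceeded background on 0 arrays, and CBX2 only on 1 array, at HH20. No difference between stages is given for these 3 genes.

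Counted by their brightest probe sets, the chromatin regulators were called in a share near that of all tested probe sets, which include dimmer ones. No role group of these genes held more than 2 called genes. Between HH16 and HH20, 3 genes rose and 4 fell among 68 tested, or 10.3%, at an adjusted p under 0.05 in limma. Over all tested probe sets, 10.9% were called in this comparison, 5.81% higher and 5.1% lower. The units differ: the 10.3% takes the brightest probe set of each gene, and the 10.9% takes every tested probe set, dim ones included. With a stricter filter on dim probe sets, at the 60th percentile, 15837 probe sets were tested and 18.6% of them were called. The nearness of 10.3% and 10.9% therefore does not show that these genes were called as often as others of like brightness. The units of the other shares of genes given below differ in the same way. The counts of each role group below are to be read beside the 5.81% higher and 5.1% lower. Over all tested probe sets of the chromatin regulators, 9 of 138 were called, or 6.52%, a lower share than the 10.9%. The median change of the 68 genes was 0.057 on the log2 scale, against -0.0037 over all tested probe sets. Only 3 genes, or 4.41%, moved by more than 0.5 in either direction, compared with 7.85% of all tested probe sets. The 3 that rose were SMARCA2, KDM3A and CBX3, and the 4 that fell were KDM2B, SETD7, SETD3 and HDAC8. None of the 7 was called on the values as deposited or with arrays centred on their medians, where 0.719% and 3.29% of all tested probe sets were called. Without HH16 replicate 2 the count was 3, without HH20 replicate 2 it was 3 and without HH20 replicate 1 it was 4. In all these fits SMARCA2, KDM2B and KDM3A were called. The share of all tested probe sets called was lower too, at 7.45%, 6.7% and 5.89% in the same order. Without the array of HH16 that was brightest and the HH18 array of highest background, HH16 replicate 1 and HH18 replicate 2, the count was 9. It included all 7, and 10.8% of all tested probe sets were called.

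**Figure D1:**
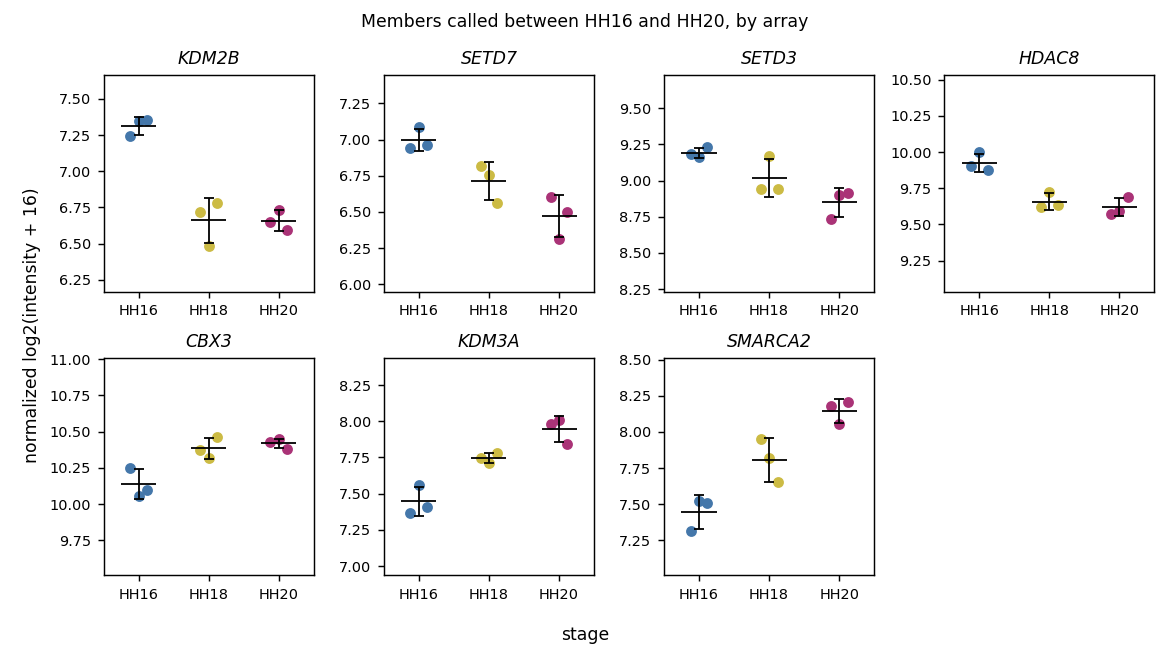
Normalized log2(intensity + 16) of the 7 called genes by stage, with 1 point per array (n = 3 per stage), a horizontal line at the stage mean and an error bar of 1 SD. Every panel spans 1.5 log2 units of the vertical axis, and in all 7 panels the HH16 points and the HH20 points do not overlap.

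The largest rise was in SMARCA2, which encodes BRM, an ATPase of the BAF remodelling complex. Its level was 7.31, 7.52 and 7.51 on the HH16 arrays, 7.95, 7.82 and 7.65 on the HH18 arrays, and 8.18, 8.05 and 8.21 on the HH20 arrays. The 3 stages did not overlap, and every HH18 array lay between the HH16 and the HH20 arrays. From HH16 to HH20 the level rose by 0.70 ± 0.12 (SE), or 1.62-fold, with a 95% interval of 0.45 to 0.95 and an adjusted p of 0.00092. The steps were of like size, 0.36 from HH16 to HH18 (adjusted p = 0.097) and 0.34 from HH18 to HH20 (adjusted p = 0.34), and neither passed alone.

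SMARCA4 encodes BRG1, the other ATPase of the complex, and a BAF complex holds one or the other. Its arrays read 7.21, 7.85 and 7.58 at HH16, 7.89, 7.80 and 7.34 at HH18, and 7.88, 7.77 and 8.11 at HH20. The stages overlapped, and the change from HH16 to HH20 was 0.37 ± 0.17 (95% interval 0.019 to 0.72, adjusted p = 0.18). The interval of SMARCA4 reaches into that of SMARCA2, and the difference between their changes was not tested.

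The remaining BAF subunits with a SMARC name gave no call. The core scaffold subunit SMARCC1 changed by 0.12 ± 0.078 (adjusted p = 0.40). The accessory subunit SMARCD1 changed by 0.092 ± 0.15 (adjusted p = 0.77) and its paralog SMARCD3 by 0.088 ± 0.15 (adjusted p = 0.79). Both were dim, with means over 9 arrays of 4.85 and 5.24 against 9.92 for SMARCC1, so their changes are understated on this scale. SMARCD1 exceeded background on 2 of 3 HH16 arrays. The core subunit SMARCB1 read 4.44, 4.07 and 4.10 at HH16, 4.73, 4.56 and 4.42 at HH18, and 4.61, 4.90 and 4.56 at HH20. All HH20 arrays of SMARCB1 lay above all HH16 arrays, with an adjusted p of 0.054, but it exceeded background on 0 of the 3 HH16 arrays and on all 3 HH20 arrays, so no fold is given. Of the 8 SMARC-named BAF subunits tested, 1 rose, 0 fell and the median change was 0.10. The BAF subunits BCL11A and SS18 do not have such a name and are described with the partner genes, where both had calls. SMARCC2, the partner of SMARCC1, is not analysed here.

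SMARCD2, a further paralog of SMARCD1, read 6.62, 6.65 and 6.60 at HH16, 6.48, 6.28 and 6.08 at HH18, and 6.51, 6.71 and 6.63 at HH20. All HH18 arrays lay below all arrays of the stages before and after, with changes of -0.34 (adjusted p = 0.17) and 0.33 (adjusted p = 0.44). Neither passed the test, and nor did the difference between the steps (0.67, adjusted p = 0.36). SMARCD2 is named here after its values were seen.

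The 4 SMARC genes outside BAF, which include the ISWI ATPases SMARCA1 and SMARCA5, gave 0 calls, with a median change of 0.12. The 7 CHD remodellers also gave 0 calls, with a median of 0.054. CHD4, the ATPase of the NuRD complex that joins remodelling to deacetylation, read 9.52, 9.87 and 9.69 at HH16, 9.55, 9.65 and 9.63 at HH18, and 9.69, 9.76 and 9.74 at HH20. Its stages overlapped, and the change of 0.037 ± 0.091 (adjusted p = 0.86) was smaller than its error. CHD5, which is known in mammals as a neuronal CHD gene, exceeded background on 0 HH16 arrays and 2 HH20 arrays, and its change was not called (adjusted p = 0.89).

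Among the histone demethylases with a KDM name, KDM2B fell and KDM3A rose. KDM2B encodes a demethylase that in mammals also recruits a variant Polycomb complex PRC1 to unmethylated CpG islands. Its level was 7.24, 7.35 and 7.35 at HH16, 6.72, 6.49 and 6.78 at HH18, and 6.65, 6.73 and 6.59 at HH20. All HH16 arrays were above all later arrays, and the HH18 and HH20 arrays overlapped. The fall of 0.65 from HH16 to HH18, or 1.57-fold, was called (adjusted p = 0.0071), the difference from HH18 to HH20 was -0.0032 (adjusted p = 1), and from HH16 to HH20 the level fell by 0.66 ± 0.13 (95% interval -0.92 to -0.39, adjusted p = 0.0026). The call from HH16 to HH18 was lost without HH16 replicate 1 and HH18 replicate 2 together (-0.60, adjusted p = 0.052), and when the probe sets of the gene were averaged (-0.35, adjusted p = 0.060).

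KDM3A encodes a demethylase of the repressive dimethyl mark on lysine 9 of histone H3. It read 7.37, 7.56 and 7.41 at HH16, 7.75, 7.71 and 7.78 at HH18, and 7.98, 8.01 and 7.84 at HH20. The 3 stages did not overlap and followed each other upwards. The rise from HH16 to HH20 was 0.50 ± 0.11, or 1.41-fold (95% interval 0.26 to 0.73, adjusted p = 0.0075), while the steps of 0.30 (adjusted p = 0.14) and 0.20 (adjusted p = 0.63) did not pass alone.

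The other 11 KDM genes tested, each by its brightest probe set, were not called from HH16 to HH20. The nearest to the threshold was KDM4C, a demethylase of methylated lysine 9, with 6.12, 6.46 and 6.38 at HH16 against 6.61, 6.65 and 7.09 at HH20. Its arrays of these stages did not overlap, and the change of 0.46 ± 0.15 had an adjusted p of 0.056. KDM1A, known as LSD1, removes methyl groups from lysine 4 and works with deacetylases in the CoREST complex. Its brightest probe set read 9.89, 10.08 and 10.33 at HH16, 10.28, 9.97 and 10.22 at HH18, and 10.10, 10.09 and 10.05 at HH20, with overlapping stages and a change of -0.018 ± 0.10 (95% interval -0.23 to 0.20, adjusted p = 0.95). Over the 13 KDM genes tested, 1 rose, 1 fell and the median change was 0.069.

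The deacetylases with an HDAC name gave 1 call. HDAC8, a class I deacetylase that in human cells acts on the cohesin subunit SMC3, read 9.90, 9.998 and 9.88 at HH16, 9.62, 9.72 and 9.63 at HH18, and 9.57, 9.59 and 9.69 at HH20. All HH16 arrays lay above all later arrays, and HH18 and HH20 overlapped. It fell by 0.31 ± 0.079 from HH16 to HH20, or 1.24-fold, with an adjusted p of 0.018. The call was lost when HH16 replicate 2 was left out (adjusted p = 0.076), when HH20 replicate 1 (0.084) or HH20 replicate 2 (0.071) was, and in the fit with no intensity trend (0.089).

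HDAC1 and HDAC2 are the paired catalytic subunits of the NuRD, Sin3 and CoREST complexes. The values of their brightest probe sets moved in opposite directions without a call. The other tested HDAC1 probe sets differed in sign: a dimmer one changed by -0.19 (adjusted p = 0.46) and the dimmest by 0.20 (adjusted p = 0.49). HDAC1 read 8.71, 8.41 and 8.71 at HH16, 8.21, 8.43 and 8.56 at HH18, and 8.34, 8.55 and 8.18 at HH20, a change of -0.26 ± 0.13 (adjusted p = 0.23) with overlapping stages. HDAC2 read 10.56, 10.81 and 10.89 at HH16, 10.91, 10.93 and 10.94 at HH18, and 10.91, 10.94 and 11.01 at HH20. All later HDAC2 arrays lay above all HH16 arrays, and the change from HH16 to HH20 was 0.20 ± 0.077 (adjusted p = 0.12). HDAC9, a class IIa deacetylase that binds MEF2 factors, read 5.31, 5.50 and 5.38 at HH16 and 5.27, 5.29 and 5.32 at HH20, and its change of -0.11 ± 0.16 had an adjusted p of 0.75. Of the 9 HDAC genes tested, 0 rose, 1 fell and the median change was -0.11. SIRT2, a deacetylase without an HDAC name, is described with the partner genes, where it was called.

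The 7 acetyltransferases gave 0 calls, with a median change of 0.085. KAT6A, also known as MOZ, had the lowest adjusted p. It read 9.13, 9.03 and 8.80 at HH16, 9.09, 9.05 and 9.28 at HH18, and 9.26, 9.33 and 9.27 at HH20, so that the HH16 and HH20 arrays did not overlap. The change was 0.30 ± 0.10, with an adjusted p of 0.065. Other tested probe sets of KAT6A differed in sign: a dimmer one, with all HH20 arrays below all HH16 arrays, changed by -0.46 ± 0.16 (adjusted p = 0.074), and others by -0.16 (adjusted p = 0.57) and 0.19 (adjusted p = 0.52).

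**Figure D2:**
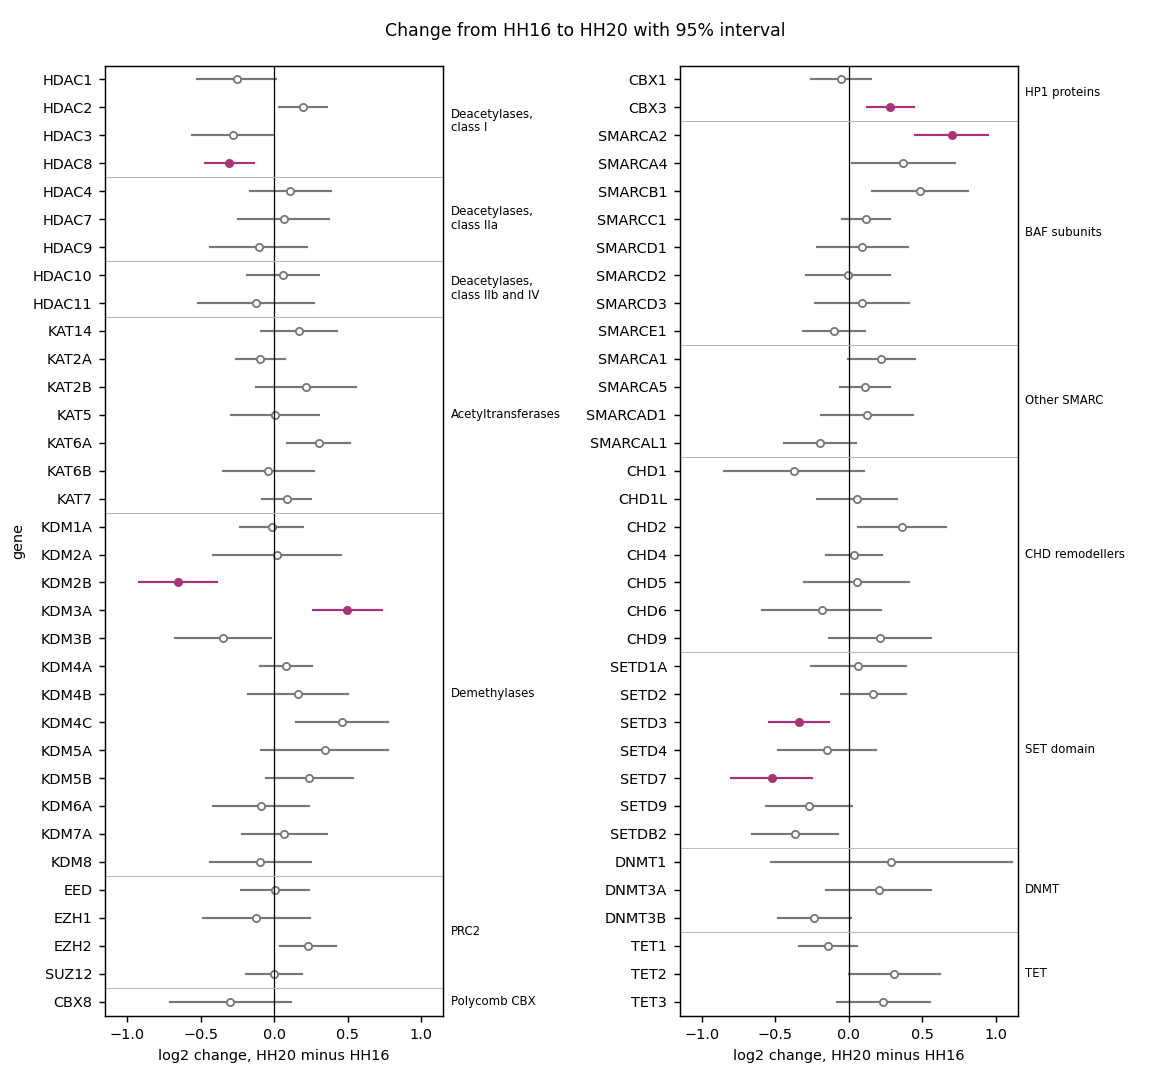
Log2 change from HH16 to HH20 of the 68 tested chromatin regulators in 2 columns, grouped by role; points are the fitted differences, bars their 95% intervals, and filled points have an adjusted p under 0.05. Most intervals include 0, the 7 filled points lie on both sides of it, and the interval of DNMT1, -0.53 to 1.11, is wide beside the others.

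Of the SETD genes, SETD7 and SETD3 fell. SETDB2 had a change of -0.37 ± 0.14 that was not called (adjusted p = 0.11). SETD7, a methyltransferase of lysine 4 of histone H3 and of other proteins, read 6.94, 7.09 and 6.96 at HH16, 6.82, 6.75 and 6.56 at HH18, and 6.60, 6.31 and 6.50 at HH20. All HH16 arrays lay above all HH18 and all HH20 arrays. It fell by 0.52 ± 0.13, or 1.44-fold (adjusted p = 0.015). The adjusted p rose to 0.063 when HH16 replicate 2 was left out and to 0.084 when HH20 replicate 2 was left out, so the call was lost in both fits.

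SETD3, which in mammals methylates a histidine of actin, read 9.18, 9.16 and 9.23 at HH16, 8.95, 9.17 and 8.95 at HH18, and 8.74, 8.90 and 8.92 at HH20. The HH16 and HH20 arrays did not overlap, while 1 HH18 array reached into the HH16 range. It fell by 0.34 ± 0.096, or 1.27-fold (adjusted p = 0.029). This was the least stable of the 7 calls: it was lost without any single array of HH16 (adjusted p = 0.052, 0.061 and 0.096 for replicates 1, 2 and 3) or of HH20 (0.15, 0.063 and 0.051) and without the intensity trend (0.081). Without probe sets designed against several transcripts, another probe set stood for SETD3 and its change was 0.20 (adjusted p = 0.38). Of the 7 SETD genes tested, 0 rose, 2 fell and the median change was -0.27. Over all tested probe sets 5.1% were called lower. Changes below 0 were found in 5 of the 7 genes, and in 12403 of all 24489 tested probe sets. With 7 genes, no trend of the group is read from these counts.

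Of the chromobox genes of the HP1 kind, which bind methylated lysine 9 in silent chromatin, CBX3 rose. It read 10.25, 10.06 and 10.10 at HH16, 10.38, 10.32 and 10.46 at HH18, and 10.43, 10.45 and 10.38 at HH20. All later arrays lay above all HH16 arrays, and HH18 and HH20 overlapped. It rose by 0.28 ± 0.075, or 1.22-fold (adjusted p = 0.021), and the call was lost without HH16 replicate 2 (adjusted p = 0.085), HH16 replicate 3 (0.076), HH20 replicate 1 (0.079) or HH20 replicate 2 (0.083), and without the intensity trend (0.13). Its relative CBX1 changed by -0.051 ± 0.097 (adjusted p = 0.81). CBX8, a chromobox subunit of PRC1 in mammals, changed by -0.30 ± 0.20 (adjusted p = 0.39).

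None of the 4 PRC2 genes that the rule named, EZH1, EZH2, EED and SUZ12, was called. PRC2 places the repressive methyl mark on lysine 27 of histone H3. Its histone binder RBBP7 is described with the partner genes, where it was called. EZH2, the main catalytic subunit, read 9.43, 9.69 and 9.55 at HH16, 9.62, 9.88 and 9.68 at HH18, and 9.80, 9.74 and 9.81 at HH20. All HH20 arrays of EZH2 lay above all HH16 arrays, but the change of 0.23 ± 0.091 (95% interval 0.035 to 0.42) did not pass after adjustment (adjusted p = 0.13). The other tested EZH2 probe set, a dimmer one, changed by 0.093 (adjusted p = 0.69), and its HH16 and HH20 arrays overlapped. EED, which reads the mark, changed by 0.0024 ± 0.11 (95% interval -0.23 to 0.23, adjusted p = 0.99). EZH1, the alternative catalytic subunit, exceeded background on 1 of 3 HH16 arrays and 2 of 3 HH20 arrays, and its change of -0.12 ± 0.17 had an adjusted p of 0.73.

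SUZ12, the scaffold of PRC2, read 8.75, 8.70 and 8.68 at HH16, 8.82, 8.87 and 8.91 at HH18, and 8.74, 8.64 and 8.75 at HH20. All HH18 arrays lay above all arrays of both other stages. The changes of 0.16 from HH16 to HH18 (adjusted p = 0.37) and -0.16 from HH18 to HH20 (adjusted p = 0.65) were not called, nor was the difference between them (-0.31, adjusted p = 0.54). The change from HH16 to HH20 was -0.00078 ± 0.091 (95% interval -0.19 to 0.19). SUZ12 and SMARCD2 were the only members of the 68 in which HH18 stood apart from both other stages on the same side. The share of all tested probe sets with such a pattern was not counted, so nothing is read from this pair.

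Among the DNA methyltransferases, DNMT1 was the most variable of all 68 genes. It has 1 probe set on the array, so the spread of the gene and that of its probe set cannot be told apart. Its arrays read 5.18, 5.51 and 6.10 at HH16, 5.83, 6.97 and 5.15 at HH18, and 6.10, 4.98 and 6.58 at HH20. The spread between replicates within HH18 and within HH20 exceeded the difference between any pair of stages, and the change of 0.29 ± 0.39 (95% interval -0.53 to 1.11, adjusted p = 0.72) leaves a rise or a fall of 0.5 within its interval. DNMT1, which copies methylation onto new DNA strands, had a range of 1.99 over 9 arrays, against 1.02 for KDM5A, the next widest, and 0.18 for KDM4A, the narrowest.

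The de novo methyltransferases DNMT3A and DNMT3B changed by 0.20 ± 0.17 (adjusted p = 0.52) and -0.24 ± 0.12 (adjusted p = 0.24). The TET enzymes start the removal of DNA methylation by oxidising it. TET1 read 9.16, 9.41 and 9.34 at HH16, 9.21, 9.19 and 9.03 at HH18, and 9.15, 9.11 and 9.22 at HH20, a change of -0.14 ± 0.094 (adjusted p = 0.38) with overlapping stages. TET2 ranged from 6.45 to 6.87 at HH16, from 6.71 to 7.08 at HH18 and from 6.93 to 7.17 at HH20. All HH20 arrays of TET2 lay above all HH16 arrays, with a change of 0.31 ± 0.15 (adjusted p = 0.21). TET3 was not called either (0.23 ± 0.15, adjusted p = 0.37) and exceeded background on 2 of 3 HH16 arrays.

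The heat map of all 68 tested genes shows the size of these movements against the spread of the arrays. The range of a gene over 9 arrays had a median of 0.55 among the chromatin regulators and 0.59 over all tested probe sets. It was below 1 log2 unit in 66 of the 68, the exceptions being DNMT1 and KDM5A. From HH16 to HH20, the 95% interval of 40 genes lay wholly within 0.5 of no change, and these included the called genes HDAC8 and CBX3. The intervals of the other 28, among them the other 5 called genes, reached beyond 0.5.

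**Figure D3:**
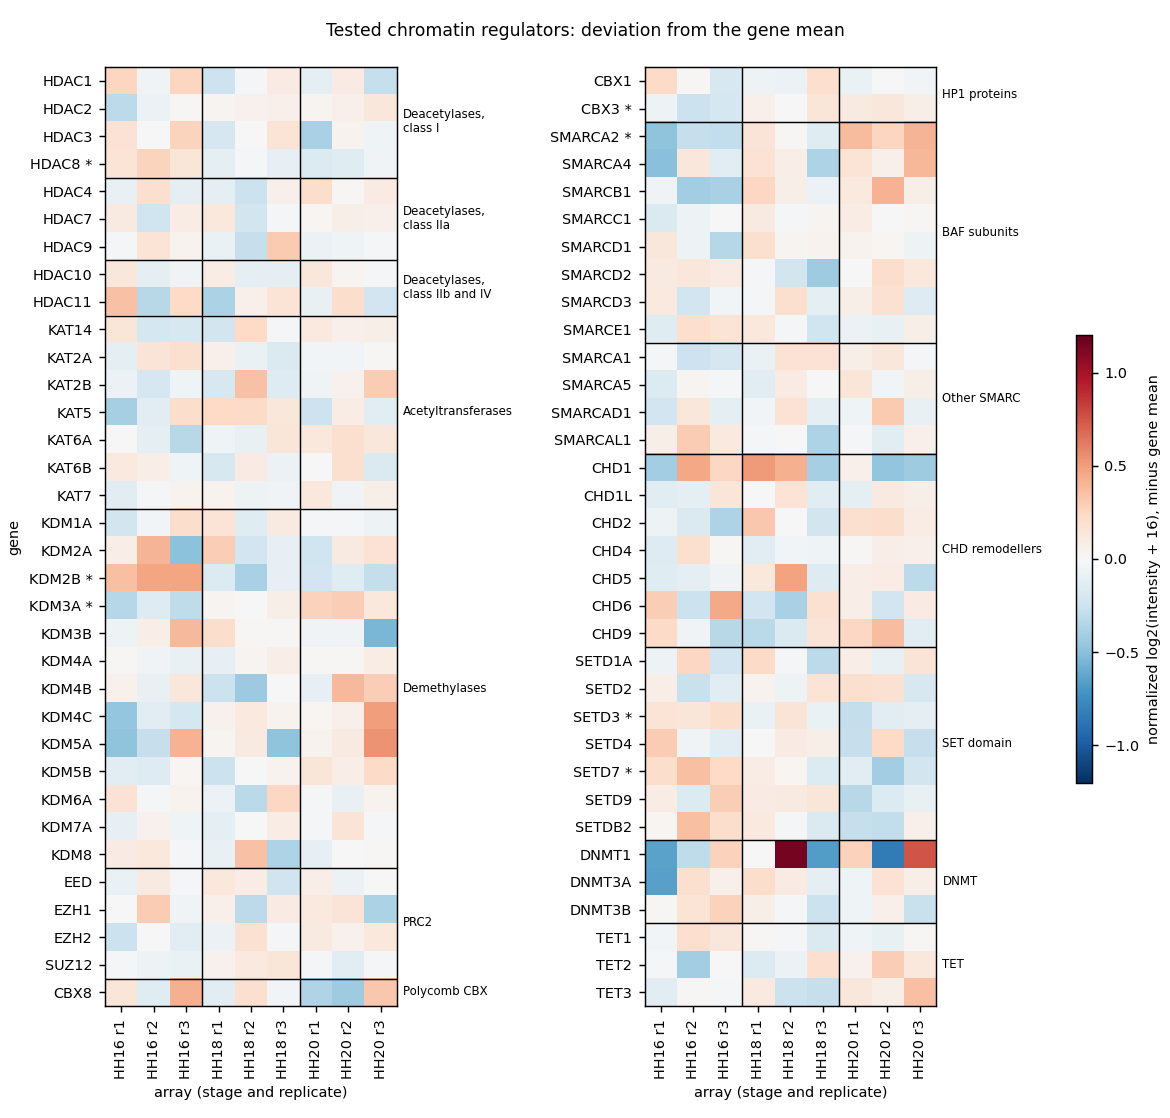
Deviation of each tested chromatin regulator from its own mean on each of 9 arrays, in normalized log2(intensity + 16), with genes in rows grouped by role and arrays in columns; red is above the mean, blue below, and the scale runs from -1.2 to 1.2. An asterisk marks the 7 genes called between HH16 and HH20, and DNMT1 shows red and blue arrays within a stage.

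Over each single step fewer genes were called. From HH16 to HH18, 1 of 68 genes was called, or 1.47%, against 4.54% of all tested probe sets (2.31% higher and 2.23% lower), and this was the fall of KDM2B. At an unadjusted p under 0.05 there were 13 genes, or 19.1%, against 19.1% of all tested probe sets. Over all probe sets of the genes, 3 of 138 were called in this step, or 2.17%, the others being dimmer probe sets of KDM1A and KDM4C. From HH18 to HH20, 0 of 68 genes were called in limma, against 0.359% of all tested probe sets; at an unadjusted p under 0.05 there were 6 genes, or 8.82%, against 9.27% of all tested probe sets. The test of whether the later step differed from the earlier step called 0 of 68 genes, against 0.0327% of all tested probe sets, with 4 genes at an unadjusted p under 0.05, or 5.88%, against 9.83%.

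The counts of genes whose arrays did not overlap between stages followed the same order. All 3 HH20 arrays lay above all 3 HH16 arrays in 15 chromatin regulators and below them in 5, or 29.4% of 68 together, compared with 30.5% of all tested probe sets (15.4% above and 15.1% below). Between HH16 and HH18 the count was 11, or 16.2%, against 21.5%, and between HH18 and HH20 it was 10, or 14.7%, against 15.1%. At an unadjusted p under 0.05, 16 genes or 23.5% passed from HH16 to HH20, against 24.2% of all tested probe sets.

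Other probe sets of the same genes did not always give the same answer. Of the 71 genes, 50 had more than 1 probe set, and 138 of the 172 probe sets were tested. From HH16 to HH20, 9 of the 138 were called, or 6.52%, in 9 different genes, against 10.9% of all tested probe sets. For 4 of the 7 called genes other tested probe sets existed, and none of those was called: KDM2B had 2 with changes of -0.18 (adjusted p = 0.51) and -0.14 (0.66), KDM3A had 2 with 0.30 (0.22) and 0.37 (0.089), SETD7 had 1 with -0.18 (0.49), and SETD3 had 2 with 0.20 (0.36) and -0.029 (0.96). The second probe set of SMARCA2 was too dim to test, and HDAC8 and CBX3 had 1 probe set each. Among the 40 genes with more than 1 tested probe set, all changes from HH16 to HH20 had 1 sign in 14 and both signs in 26. The share over all genes with more than 1 tested probe set was not counted, so these counts are not read as a trait of the chromatin regulators.

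For 2 genes a dimmer probe set was called and the brightest was not. The dimmer KDM1A probe set read 8.38, 8.48 and 8.55 at HH16, 7.93, 7.69 and 8.14 at HH18, and 7.66, 7.90 and 8.04 at HH20. All its HH16 arrays lay above all later arrays, and it fell by 0.60 ± 0.13 (adjusted p = 0.0062) from HH16 to HH20 and by 0.55 (adjusted p = 0.024) from HH16 to HH18, while the other KDM1A probe set changed by -0.22 (adjusted p = 0.39). The dimmer KDM4C probe set read 5.68, 5.60 and 5.62 at HH16, 6.11, 6.25 and 6.47 at HH18, and 6.47, 6.56 and 6.02 at HH20. From HH16 to HH18 it rose by 0.65 (adjusted p = 0.027). From HH16 to HH20 it rose by 0.72 ± 0.16 (adjusted p = 0.0066), in the same direction as the brightest probe set of the gene. Which transcripts each probe set reads was not tested.

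**Figure D4:**
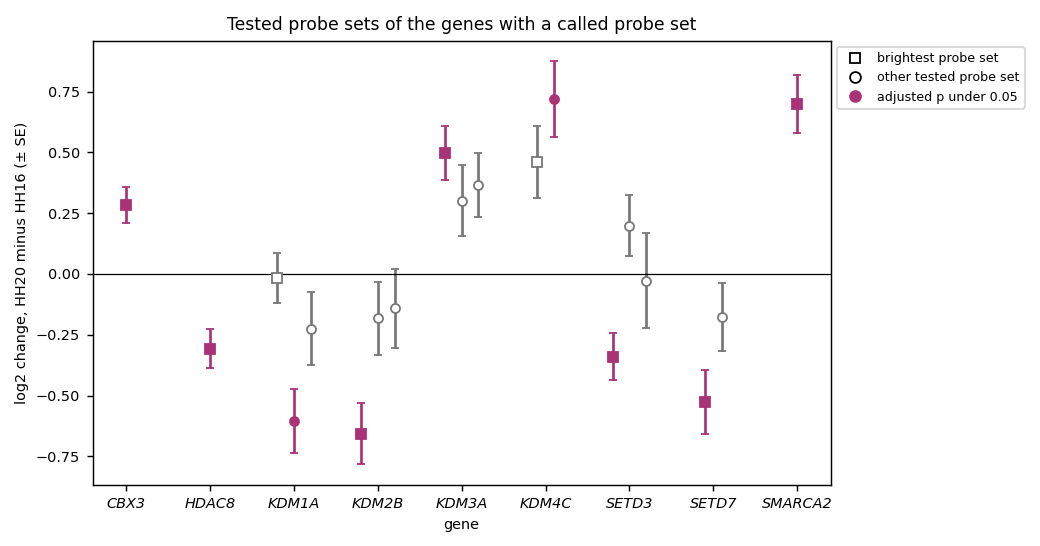
Log2 change from HH16 to HH20 (± SE) of every tested probe set of the 9 genes with a called probe set; squares are the brightest probe set of a gene, circles the others, and filled symbols have an adjusted p under 0.05. KDM1A and KDM4C are called in a dimmer probe set and not in the brightest, and the 2 other SETD3 probe sets lie above the called one.

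Genes that work with the chromatin regulators were described through a list of 130 partner genes, of which 100 had a named probe set and 96 were tested. From HH16 to HH20, 8 rose and 2 fell, or 10.4%, against the same 10.9% of all tested probe sets, and the median change was 0.021. The largest rise was in BCL11A, a zinc finger factor that in mammals is also a BAF subunit. It read 6.73, 7.68 and 7.44 at HH16, 8.18, 8.22 and 8.29 at HH18, and 8.90, 8.60 and 9.01 at HH20. The stages did not overlap, and it rose by 1.55 ± 0.18, or 2.94-fold (adjusted p = 2.4e-05).

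ASXL3, a cofactor of the BAP1 deubiquitinase that removes a Polycomb mark, rose by 0.74 ± 0.11 (adjusted p = 0.00036), and JMJD1C, a relative of KDM3A, by 0.59 ± 0.13 (adjusted p = 0.0067). The acetyl-lysine reader BRD3 rose by 0.44 ± 0.11 (adjusted p = 0.016), KMT2E by 0.33 ± 0.087 (adjusted p = 0.022), REST, a repressor of neuronal genes, by 0.31 ± 0.093 (adjusted p = 0.039), the methyltransferase KMT2A by 0.30 ± 0.093 (adjusted p = 0.048) and the histone binder RBBP7 of PRC2 and NuRD by 0.30 ± 0.088 (adjusted p = 0.038). MBD4, a glycosylase that repairs mismatches at CpG sites, fell by 0.52 ± 0.14 (adjusted p = 0.021), and the deacetylase SIRT2 fell by 0.40 ± 0.12 (adjusted p = 0.038). BCL11A kept its call in all 22 alternatives, with an adjusted p of at most 0.015. ASXL3 and JMJD1C kept theirs in each of the 9 fits that left out 1 array, but lost them as deposited, with arrays centred on their medians, and with the probe sets of a gene averaged, where ASXL3 changed by 0.25 (adjusted p = 0.13) and JMJD1C by 0.013 (adjusted p = 0.95). None of the other 7 was called as deposited or centred. BRD3, KMT2E, REST and KMT2A also lost the call with the probe sets of a gene averaged. Of the 22 alternatives, BRD3 and MBD4 kept the call in 17, KMT2E and SIRT2 in 13, REST in 11, RBBP7 in 9 and KMT2A in 6. Without 1 array, the highest adjusted p was 0.091 for BRD3, 0.092 for KMT2E, 0.11 for MBD4 and 0.13 for RBBP7. It was 0.15 for SIRT2, 0.20 for REST and 0.21 for KMT2A.

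From HH16 to HH18, 4 partner genes rose and 0 fell, or 4.17%, against the 4.54% of all tested probe sets. These were BCL11A, ASXL3, JMJD1C and SS18, a BAF subunit. BCL11A and ASXL3 kept the call without any 1 array, JMJD1C in 4 of the 9 such fits (adjusted p up to 0.17) and SS18 in 1 of the 9 (adjusted p up to 0.16). None of the 4 was called as deposited or with arrays centred on their medians, where BCL11A changed by 0.56 (adjusted p = 0.58) and 0.64 (adjusted p = 0.14). ASXL3 also lost this call with probe sets averaged (0.12, adjusted p = 0.57) and without HH16 replicate 1 and HH18 replicate 2 together (0.54, adjusted p = 0.062). From HH18 to HH20, limma called 0 of the 96 partner genes, against 0.359% of all tested probe sets.

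Markers of several cell types moved with stage. From HH16 to HH20, limma called 87.5% of the tested neuron markers, 20.7% of the cell cycle genes and 18.2% of the vessel markers. For macrophage and leukocyte markers the share was 33.3%, for mesenchyme 30.8%, for placode 28.6% and for red blood cell markers 25%. Over all tested probe sets it was 10.9%. Of 16 tested neuron markers, 14 rose and 0 fell from HH16 to HH20, and the summed intensity of the 17 on the array was 1781.5 to 2313 at HH16, 2752.6 to 2876.4 at HH18 and 3661.4 to 3944.8 at HH20, with GAP43 above background on no array. The summed level of 29 cell cycle genes was 25174.6 to 26719.2 at HH16, 24608.5 to 26521.8 at HH18 and 24733.3 to 25403.3 at HH20, with overlapping stages, and 2 of these genes rose and 4 fell. Vessel markers (2 of 11 tested rose, 0 fell) summed to 330.1 to 514.3 at HH16, 486.7 to 828.3 at HH18 and 687.6 to 754.5 at HH20, with TAL1 above background on no array. Macrophage and leukocyte markers (2 of 6 rose, 0 fell) summed to 195.4 to 237, 271.4 to 385 and 362.8 to 370.4 at the same stages, with LYZ, LYG2 and CYBB above background on no array.

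Mesenchyme markers (3 of 13 rose, 1 fell) summed to 4592.4 to 5244 at HH16, 4655.3 to 6227.7 at HH18 and 5642.7 to 5978.7 at HH20, with TWIST2, TBX18 and ALX4 above background on no array. Red blood cell markers (1 of 4 rose, 0 fell) summed to 1015.6 to 2263.1, 855.9 to 2857.9 and 2260.5 to 2968.3, with SLC4A1 and HEMGN above background on no array. Placode markers (3 of 14 rose, 1 fell) summed to 5405.2 to 5974.5, 5805 to 6049.5 and 5610.1 to 5923.9, and these ranges overlapped. The part of these cell types in the changes of the chromatin regulators was not tested. In these bulk samples, fewer cells of a type and less RNA per cell cannot be told apart.

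**Figure D5:**
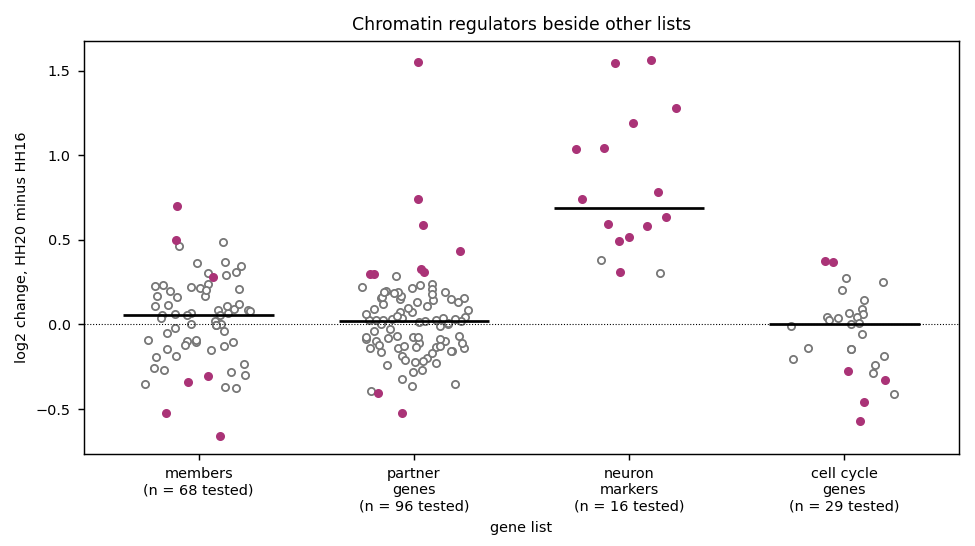
Log2 change from HH16 to HH20 of the tested chromatin regulators (68 genes), partner genes (96), neuron markers (16) and cell cycle genes (29); each point is a gene, filled points have an adjusted p under 0.05, and the thick line is the median. The medians of the chromatin regulators and partner genes lie near 0, while 14 of the 16 neuron markers are filled and above 0.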

How the data were processed

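Total RNA of dissected olfactory placodes (9 samples: 3 per stage, HH16, HH18 and HH20) was amplified and labelled with biotin, per the labels' protocols, and hybridised to chicken arrays of the Affymetrix kind, as the names of the probe sets show. The deposited values are 1 linear intensity per probe set and array, made by the authors with MAS5, per the submitters' processing notes; its version and scaling are not given in the sources used here. Detection calls were not used. Genes were named from the platform annotation (27166 of 37693 chicken probe sets had 1 symbol, 177 several and 10350 none), and 70 of the 71 genes described were found in the RefSeq table of GRCg7b. No coordinates or sequences are given.

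Values were taken as log2(intensity + 16) and quantile normalized over the chicken probe sets of the 9 arrays. Probe sets above the 40th percentile of their array on at least 3 arrays were tested. limma 3.58.1 in R 4.3.3 (lmFit, eBayes with an intensity trend) fitted a mean per stage over all 9 arrays, with 6 residual and 11.1 prior degrees of freedom. Tests were two-sided. Their p-values were adjusted by the Benjamini-Hochberg method over the 24489 probe sets tested, and those under 0.05 were called. The script was tested on simulated data. Errors of changes are standard errors of the fit. With 3 arrays at each stage, the number of arrays sets the precision. The labels do not say which embryos or days the replicates came from, and the p-values cover only the spread between these 9 samples.

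The genes, the lists of partners and cell type markers, and the rule for named genes were chosen with earlier results of these data known, so none of their counts is independent evidence. Named are all called members, a fixed set of core members called or not, and the 10 partner genes called with the largest change; others named lay nearest to the threshold or stood out and were chosen after their values were seen. Replicate numbers are shared by the stages. Deviations from the stage means correlated at -0.13 to 0.056 for the same number and -0.18 to 0.14 for different numbers. No pairing by number was seen in these values, and the main fit used none. Whether samples of the same number were collected or handled together is not known. Alternatives were another or no normalization, other pseudocounts, filters, probe set rules and variance settings, a replicate block, and leaving out arrays.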

Additional observations from a re-analysis of the deposited data

How the results depend on the processing

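The count of chromatin regulators called between HH16 and HH20 depended on the normalization between arrays. It was 7 after quantile normalization, 0 on the values as deposited and 0 with arrays centred on their medians, where the adjusted p of the 7 genes ran from 0.095 (KDM2B) to 0.82 (CBX3) after centring. All 7 kept their direction there. In these scalings the median of all tested probe sets moved by -0.049 as deposited and -0.043 centred from HH16 to HH20. It moved more in the single steps, by -0.25 and -0.17 from HH16 to HH18, and by 0.22 and 0.14 from HH18 to HH20. The share of all calls that were higher was 53.2% from HH16 to HH20, against 64.2% as deposited and 53.9% centred. From HH16 to HH18 it was 50.9% against 4.55% as deposited and 10.2% centred, and from HH18 to HH20 70.5% against 100% and 96.7%. The count of all tested probe sets called from HH16 to HH20 was 176 as deposited and 805 centred, against 2673.

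Without the intensity trend 4 chromatin regulators were called from HH16 to HH20, and leaving out 1 array in turn gave 3 to 9. Over all tested probe sets the share called was 8.82% without the trend and 5.89% to 13.4% without 1 array, against 10.9%. SMARCA2, KDM2B and KDM3A kept their calls in the other 20 of 22 alternatives. From HH16 to HH18 the count of 1 became 0 as deposited. There 0.18% of all tested probe sets were called, against 4.54% in the main fit. With the filter at the 60th percentile the count was 3, beside 8.19%. It was 2 with probe sets averaged per gene, KDM2B not among them, beside 4.67% of all averaged values tested. It was also 2 when probe sets made for more than 1 transcript were left out, beside 4.68%. Without HH16 replicate 1 and HH18 replicate 2 together it was 0, beside 1.7%. Leaving out 1 array gave 1 to 2, beside 1.68% to 4.18%. From HH18 to HH20 all 22 alternatives gave 0, beside 0.0408% to 0.594% of all tested probe sets. All those run for the difference between steps also gave 0, beside 0% to 0.137% of all tested probe sets. The fit of only 2 stages gives no value for that difference. With the replicate block the counts were 7, 1, 0 and 0, beside 9.47%, 3.34%, 0.302% and 0.0368% of all tested probe sets. The block ended the calls of the partner genes REST (adjusted p = 0.061), SIRT2 (0.064), RBBP7 (0.072) and KMT2A (0.075) from HH16 to HH20, and of JMJD1C (0.054) and SS18 (0.065) from HH16 to HH18.

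SETD3 turned to 0.20 (adjusted p = 0.38) from HH16 to HH20 without probe sets designed against several transcripts, which changes the probe set that stands for it. SS18 turned from HH16 to HH18 to -0.095 (adjusted p = 0.89) as deposited and -0.012 (adjusted p = 0.98) centred, and JMJD1C to -0.053 (adjusted p = 0.81) with the mean of its probe sets. The cause of the other changes was not tested. Genes near background, such as SMARCB1, SMARCD1, EZH1, CHD5 and TET3, have values that the signal over background limits.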
